A study of Mus musculus with 4 samples.

Results

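The enzymes that consume, recycle and divert arginine were compared between Pparg knockout (KO) and wild-type (WT) mouse macrophages. The set was 9 genes chosen by function, with earlier results of these data known. They were the arginases Arg1 and Arg2, the inducible nitric oxide synthase Nos2, and the citrulline recycling enzymes Ass1 and Asl. The others were the cofactor enzyme Gch1, and Oat, Odc1 and Sat1 of ornithine and polyamine metabolism. The platform annotation placed 12 of the 12488 rows of the value table in the 9 genes. Of the 12 rows, 9 had values, covering 8 of the 7577 genes measured. The 1 probe set of Gch1 and a second one each of Asl and Oat were blank on all 4 arrays and are not analysed here.

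KO macrophages are labelled as lacking Pparg, which encodes the nuclear receptor PPARγ, and WT macrophages as carrying it. Both came from mice of a mixed 129/SV and C57BL/6 background, and both were peritoneal macrophages elicited with 2.5 ml of 3% thioglycollate, collected on day 3, plated for 5 h in 10% serum and then held for 24 h in 0.5% serum with no added cytokine or ligand. The labels do not name the deleted part of Pparg, the way the deletion was made, or the age of the mice. Each genotype had 2 samples, each on 1 Affymetrix array. Nothing in the labels says that they came from separate mice or cultures, while both second replicates carry "dup" in their descriptions, a suffix left unexplained there. The SDs (n = 2) and every p-value here therefore reflect variation among 4 arrays that may be technical. RefSeq places Arg1 on chromosome 10, Nos2 on 11, Arg2 and Odc1 on 12, Ass1 on 2, Asl on 5, Oat on 7 and Sat1 on X.

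Macrophages take up arginine through cationic amino acid transporters and spend it in competing ways. Inducible nitric oxide synthase turns it into nitric oxide and citrulline with the help of tetrahydrobiopterin, and is the classical product of macrophages exposed to interferon-γ or bacterial lipopolysaccharide. Arginase turns it into urea and ornithine, the precursor of polyamines and proline, and in mice Arg1 is a standard marker of macrophages exposed to interleukin-4. In mouse macrophages the Arg1 enhancer is known to bind STAT6, C/EBPβ and PPAR factors.

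Values are probe set signals in intensity units. Log2 fold changes (KO minus WT) and ratios are of signals to which 16 was added, which understates the change of dim probe sets, and adjusted p-values are from limma with Benjamini-Hochberg adjustment over all probe sets in the fit. With 2 arrays against 2, an exact permutation test of a single probe set cannot give a two-sided p below 0.333, so each call rests on the spread that limma pools over probe sets of like signal. Without that pooling limma called 0 of 6389 probe sets, with 388 at an unadjusted p under 0.05, so every call below, Arg1, Nos2 and Slc7a2 included, depends on it. Signals are set against 12 control probe sets for the opposite strand, whose median was 111.4 and 106.6 on the KO arrays and 103.8 and 116.0 on the WT arrays. Pparg itself, by its 1 probe set, read 43.0 and 40.6 in KO, against 61.1 and 73.1 in WT, all under those medians (log2 fold change -0.52, limma adjusted p = 0.00012, and 0.14 without WT replicate 2). Where its probes lie relative to the deletion is not known here, so it is a weak check of the labels. Of the 9 enzyme probe sets, 5 passed the signal filter. The other 4 (both of Arg2, and those of Nos2 and Asl) are given from the fit of all 10649 probe sets without a filter.

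Arg1 rose and Nos2 fell in KO macrophages, and no other enzyme of the set passed the test. Among the 5 probe sets in the filtered fit 1 passed, where 3.55% of all 6389 tested did, and among the other 4, 1 passed, where 3.11% did in the fit without a filter. The KO and WT arrays did not overlap for 5 of the 9 probe sets, against 35.2% of all 10649. The set was chosen with earlier results of these data known, so these counts are not independent support for a change in it. The median log2 fold change of the 9 was -0.03, as was that of all probe sets with values.

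**Figure D1:**
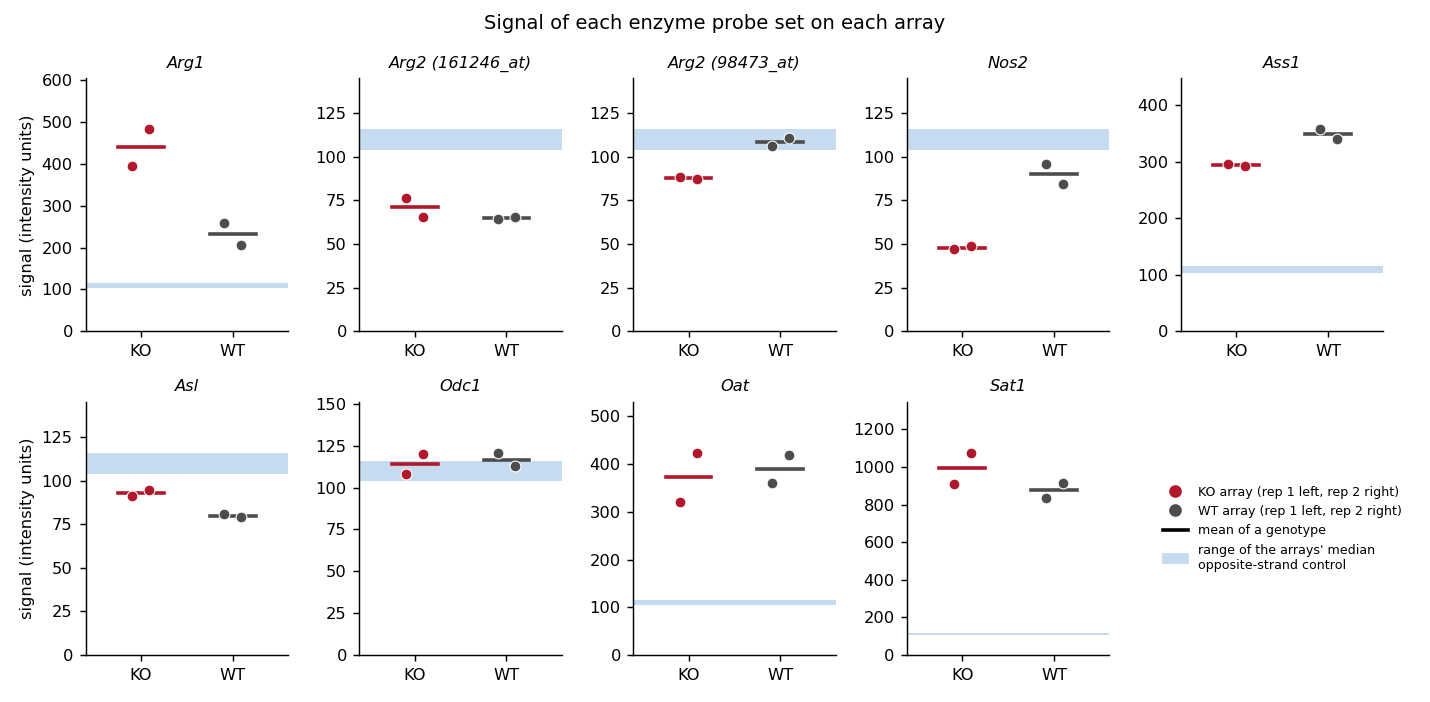
Signal (vertical axes, intensity units, each starting at 0) of each of the 9 enzyme probe sets on the 2 KO and 2 WT arrays, with horizontal bars at the genotype means and a band over the range of the arrays' median opposite-strand control signal, 103.8 to 116.0. Both KO arrays lie above both WT arrays for Arg1 and below them for Nos2, and the Nos2 points all lie under the band.

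Arg1, which encodes the cytosolic arginase, read 395.0 and 483.3 on the KO arrays, against 257.8 and 206.1 on the WT arrays. Both KO arrays lay above both WT arrays, with the lower KO array well clear of the higher WT array. The means were 439.1 ± 62.4 in KO and 231.9 ± 36.6 in WT (SD, n = 2 each). The difference was 0.88 on the log2 scale (SE 0.13, limma adjusted p = 9.68e-10), which is a ratio of 1.84. By size this was rank 3 among the rises of the 5002 genes tested. The arrays of each genotype differed more for Arg1 than is usual at its brightness: its own SD was 0.21 on the log2 scale, against 0.13 from the trend that the test used. On its own spread the 95% interval of the change ran from -0.01 to 1.76 (limma adjusted p = 0.81 without moderation). Without WT replicate 2, the dimmer WT array, the log2 fold change was 0.73 and limma's adjusted p = 0.11; without WT replicate 1 it was 1.03, with adjusted p = 0.00055.

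Arg2 encodes the mitochondrial arginase, and its 2 probe sets disagreed in direction. The first probe set read 88.6 and 87.5 in KO, against 106.1 and 110.6 in WT, or -0.26 on the log2 scale (SE 0.11, limma adjusted p = 0.28). The other probe set read 76.7 and 65.3 in KO, against 64.6 and 65.8 in WT, or 0.10 on the log2 scale (SE 0.11, adjusted p = 0.96). The groups were apart for the first and overlapped for the other, and 7 of these 8 signals lay below the median control of their array. Averaged over the 2 probe sets, the log2 fold change was -0.08 (adjusted p = 0.95), so neither a rise nor a fall of Arg2 was shown.

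Nos2 encodes the enzyme that makes nitric oxide in activated macrophages. It read 47.3 and 48.7 on the KO arrays, against 96.1 and 84.3 on the WT arrays. The KO arrays nearly coincided, and both lay far below the WT arrays. The log2 fold change was -0.73 (SE 0.11, limma adjusted p = 3.83e-09 in the fit without a filter). All 4 signals were dim, under the median control of their array, and no ratio is quoted for that reason. The size of the difference depends on the pseudocount: it was -0.89 after adding 1 and -0.46 after adding 64, with adjusted p = 4.98e-09 and 2.90e-09. With each array left out in turn it stayed between -0.65 and -0.81, with adjusted p from 1.84e-06 to 0.00046. Its own SD on the log2 scale was 0.08, against 0.11 from the trend, and on its own spread the 95% interval ran from -1.08 to -0.38 (limma adjusted p = 0.73 without moderation).

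**Figure D2:**
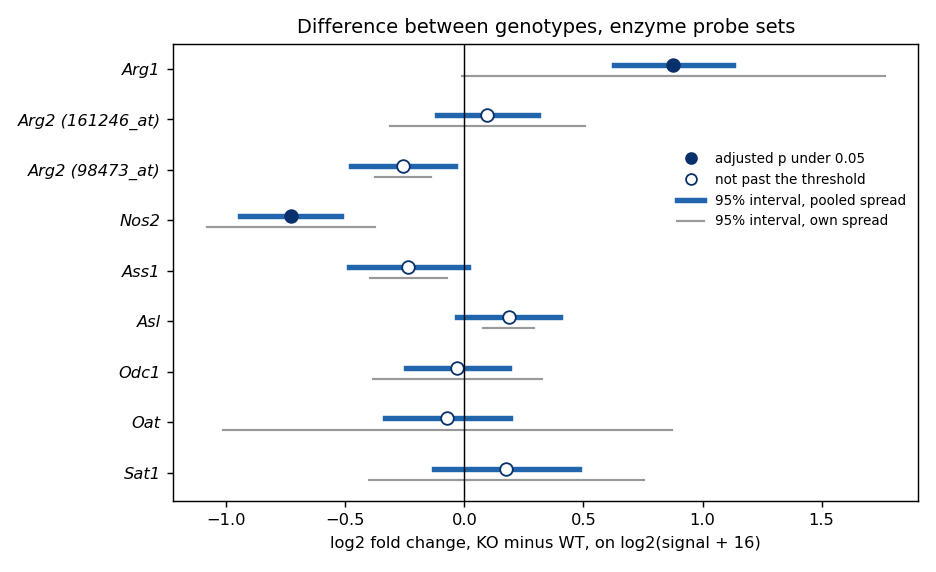
Log2 fold change of each enzyme probe set, KO minus WT (horizontal axis), with the 95% interval from the pooled spread used in the test (thick) and from the probe set's own spread with 2 residual degrees of freedom (thin). Arg1 at 0.88 and Nos2 at -0.73 are filled as past an adjusted p of 0.05; the other 7 lie between -0.26 and 0.19.

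Citrulline released by nitric oxide synthase is turned back into arginine by Ass1, argininosuccinate synthetase, and Asl, argininosuccinate lyase. Ass1 is induced together with Nos2 in activated macrophages of mice and rats. Here Ass1 read 296.0 and 291.3 in KO, against 357.6 and 339.5 in WT. Both KO arrays were lower, but the log2 fold change of -0.24 (SE 0.13) did not pass limma's test (adjusted p = 0.62), and its 95% interval ran from -0.49 to 0.01. Asl was the other way round, with 91.4 and 94.6 in KO, against 80.7 and 78.9 in WT. The Asl groups were also apart, by 0.19 on the log2 scale (SE 0.11, adjusted p = 0.63), and all 4 of its signals lay under the median control. The replicates of both genes were closer than usual: the own SD of Ass1 was 0.04 against 0.13 from the trend, and that of Asl 0.03 against 0.11. On their own spread Ass1 had an interval of -0.40 to -0.07 and Asl one of 0.08 to 0.29, both clear of 0 before any adjustment, with limma's adjusted p at 0.78 and 0.73 without moderation.

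The promoter of Ass1 is shown because it is the recycling enzyme whose arrays separated in the direction of Nos2, and that of Irf1, described below, because it encodes a factor that Nos2 transcription needs. RefSeq promoters of the GRCm38.p6 build were matched for 5 of the 9 genes: Ass1, Odc1, Oat, Gch1 and Sat1. The 150 bases before each start site are given 5′ to 3′ on the plus strand, at chr2:31470120-31470269 for Ass1 and chr11:53769864-53770013 for the first of the 2 start sites of Irf1. Capitals mark matches to CACGTG, the E-box bound by basic helix-loop-helix factors, and to TTCNNNGAA, the element bound by STAT factors.
Ass1: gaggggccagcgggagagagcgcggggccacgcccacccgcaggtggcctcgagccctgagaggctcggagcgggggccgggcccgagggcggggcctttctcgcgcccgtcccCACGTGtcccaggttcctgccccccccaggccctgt
Irf1: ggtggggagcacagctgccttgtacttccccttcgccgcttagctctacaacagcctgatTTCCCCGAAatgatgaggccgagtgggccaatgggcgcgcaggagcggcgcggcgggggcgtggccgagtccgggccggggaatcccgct

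The E-box of Ass1 spans positions -36 to -31 from the start site, and the STAT element of Irf1 spans -90 to -82 from its first start site. The searched window of the second Irf1 start site held 0 matches to TTCNNNGAA and 0 to CACGTG. Over both strands of all 32851 promoters of 300 bases in the table, 7.15% held CACGTG and 8.30% held TTCNNNGAA; these elements read the same on either strand. The searched windows of Ass1 and of the other matched enzyme genes held no TTCNNNGAA, and none held AGGTCA, the half-site of nuclear receptors such as PPARγ, which 16.3% of all promoters held. A further search for GAAANNGAA, a form of the element of interferon regulatory factors present in 8.56% of promoters, matched Oat only among these genes. These matches describe the letters in the window and carry no measurement of binding.

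Ornithine made by arginase goes on to polyamines or to proline and glutamate. Odc1, ornithine decarboxylase, the first step towards polyamines, read 107.8 and 120.3 in KO, against 120.8 and 112.6 in WT, with 1 array of each genotype under its control median. Oat, ornithine aminotransferase, which leads to proline, read 320.7 and 423.9 in KO, against 360.4 and 418.6 in WT. Both groups overlapped. The log2 fold changes were -0.03 for Odc1 (95% interval -0.25 to 0.19) and -0.07 for Oat (-0.33 to 0.19), and the limma adjusted p was 0.9997 for both. The KO arrays of Oat stood further apart than its genotypes did, and the direction of both genes turned with the array left out: Oat was 0.12 without KO replicate 1 and -0.26 without KO replicate 2, and Odc1 was 0.039 and -0.10.

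Sat1, spermidine/spermine acetyltransferase, starts the breakdown and export of polyamines. It read 909.8 and 1076.0 in KO, against 836.5 and 913.3 in WT, so the lower KO array fell just within the WT range. The log2 fold change was 0.18 (SE 0.16, limma adjusted p = 0.99), with a 95% interval of -0.13 to 0.48. None of the 3 enzymes that act on ornithine or polyamines passed the threshold, and the interval of Sat1 does not exclude a rise of up to 0.48.

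The uptake of arginine, the supply of cofactor and the rest of the polyamine pathway were read from 45 further genes, of which 26 had values and 22 passed the filter. Of these 22, 1 fell, 0 rose and 21 did not pass, where 2.66% of all 5002 genes tested fell and 1.06% rose. The median log2 fold change was -0.03, against -0.02 over all genes tested. At an unadjusted p of 0.05 limma had 2 lower and 0 higher, against 323 lower and 150 higher of all 5002.

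The gene that fell was Slc7a2, which encodes CAT2, the inducible transporter that carries arginine into activated macrophages. It read 154.9 and 172.7 on the KO arrays, against 342.3 and 376.3 on the WT arrays. Both KO signals were less than the lower WT signal by a wide margin, and all 4 lay above the control median. The log2 fold change was -1.06 (SE 0.12, limma adjusted p = 1.37e-16), a ratio of 2.09 for WT over KO and rank 14 among the falls of the genes tested. It stayed between -0.99 and -1.13 with each array left out in turn, with adjusted p of 2.88e-06 at most. Slc7a1, the constitutive transporter, lay below the filter at 83.1 and 68.5 in KO, against 92.2 and 86.7 in WT (log2 fold change -0.20, adjusted p = 0.53 in the fit without a filter).

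The next genes by p did not pass limma's test. Gatm, which uses arginine to make the creatine precursor, read 331.2 and 377.2 in KO, against 441.5 and 429.9 in WT (log2 fold change -0.29, adjusted p = 0.41). Ddah2, which degrades methylarginines that inhibit nitric oxide synthases, averaged 278.2 in KO and 242.7 in WT (0.19, adjusted p = 0.81). Azin1, which protects ornithine decarboxylase from antizyme, averaged 528.7 in KO and 454.8 in WT (0.21, adjusted p = 0.86).

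Receptors and transcription factors known to act on Nos2 or Arg1 in macrophages were taken as 28 genes, of which 20 were tested. Of these 20, 4 fell, 0 rose and 16 did not pass, where 2.66% of all genes tested fell and 1.06% rose. At an unadjusted p of 0.05 limma had 8 lower and 0 higher of the 20, against 323 lower and 150 higher of all 5002. Means were lower in KO for 17 of the 20, and their log2 fold changes had a median of -0.20, where 2888 of all 5002 genes were lower and the median was -0.02. The list was drawn up with earlier results of these data known, so its counts are not independent support for a direction.

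**Figure D3:**
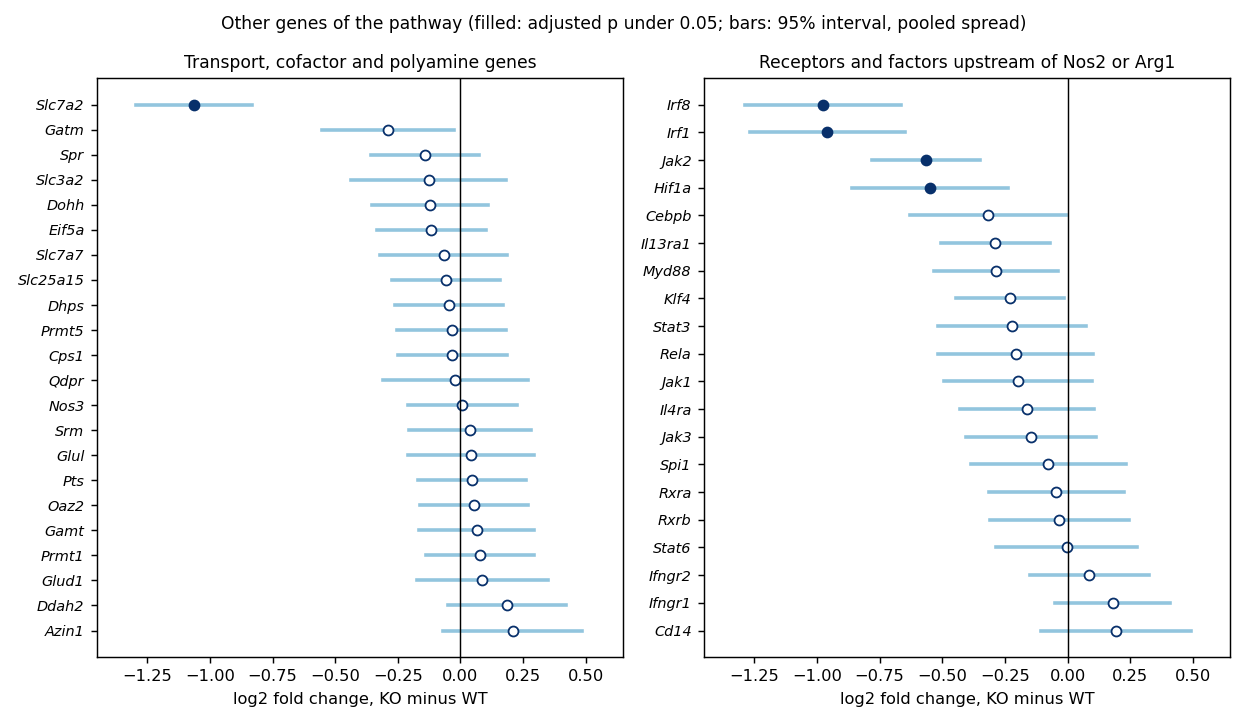
Log2 fold change, KO minus WT (horizontal axes), with the 95% interval from the pooled spread, for the 22 tested genes of arginine transport, cofactor supply and polyamine metabolism (left) and the 20 tested receptors and factors upstream of Nos2 or Arg1 (right). Slc7a2 at -1.06 is the 1 filled point on the left; Irf8, Irf1, Jak2 and Hif1a, from -0.97 to -0.55, are the 4 on the right.

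The 4 genes that fell were Irf1, Irf8, Jak2 and Hif1a. Irf1, a factor that mouse macrophages need to induce Nos2, read 1221.4 and 1460.1 in KO, against 2591.5 and 2630.2 in WT, and neither genotype reached the other. Its log2 fold change was -0.96 (SE 0.16, limma adjusted p = 2.03e-07, ratio 1.94). Irf8, its partner factor of the myeloid lineage, read 1142.6 and 1344.7 in KO, against 2304.8 and 2607.4 in WT, at -0.97 (SE 0.16, adjusted p = 1.24e-07, ratio 1.97). Without WT replicate 1 or without WT replicate 2 the adjusted p was 0.17 and 0.22 for Irf1, and 0.079 and 0.31 for Irf8, at log2 fold changes of -0.89 or lower in each case.

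Jak2, a kinase of the interferon-γ receptor, read 104.0 and 129.7 in KO, against 177.6 and 181.4 in WT, with 1 KO array under its control median. The log2 fold change was -0.56 (SE 0.11, limma adjusted p = 2.63e-05), and it passed with any array left out, at adjusted p of 0.029 or less. Hif1a, the hypoxia factor that also acts on the Nos2 promoter, read 1172.3 and 1232.5 in KO, against 1821.8 and 1713.8 in WT by its brighter probe set, at -0.55 (SE 0.16, adjusted p = 0.018). Its dimmer probe set gave -0.43 (adjusted p = 0.13), and without either WT array the adjusted p of the brighter one was 0.9997 or more. The receptor chains Ifngr1 and Ifngr2 averaged 259.2 and 277.0 in KO, against 226.9 and 259.6 in WT, and did not pass. Jak1, another kinase of the list, averaged 665.7 in KO and 764.4 in WT and did not pass (log2 fold change -0.20, limma adjusted p = 0.93).

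Of the list's genes that are known to act on Arg1, Pparg is given above. A further 5 are named here, and none of them passed. They were picked with their values in view and are not a count of all such genes on the list. Stat6, the factor activated by interleukin-4, averaged 516.7 in KO and 517.3 in WT. Its receptor chains Il4ra and Il13ra1 averaged 394.1 and 110.8 in KO, against 442.2 and 138.9 in WT (log2 fold changes -0.16 and -0.29, limma adjusted p = 0.98 and 0.17). Cebpb and Klf4, factors that act on Arg1, averaged 1415 and 134.8 in KO, against 1755 and 160.9 in WT (-0.32 and -0.23, adjusted p = 0.50 and 0.43). All of these 5 genes had means lower in KO, Stat6 only barely (log2 fold change -0.0036), and none was past the threshold. Cebpb passed as lower after quantile normalization (limma adjusted p = 0.037) and without KO replicate 2 (0.0066). The PPAR partners Rxra and Rxrb averaged 421.8 and 474.7 in KO, against 435.9 and 485.9 in WT.

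**Figure D4:**
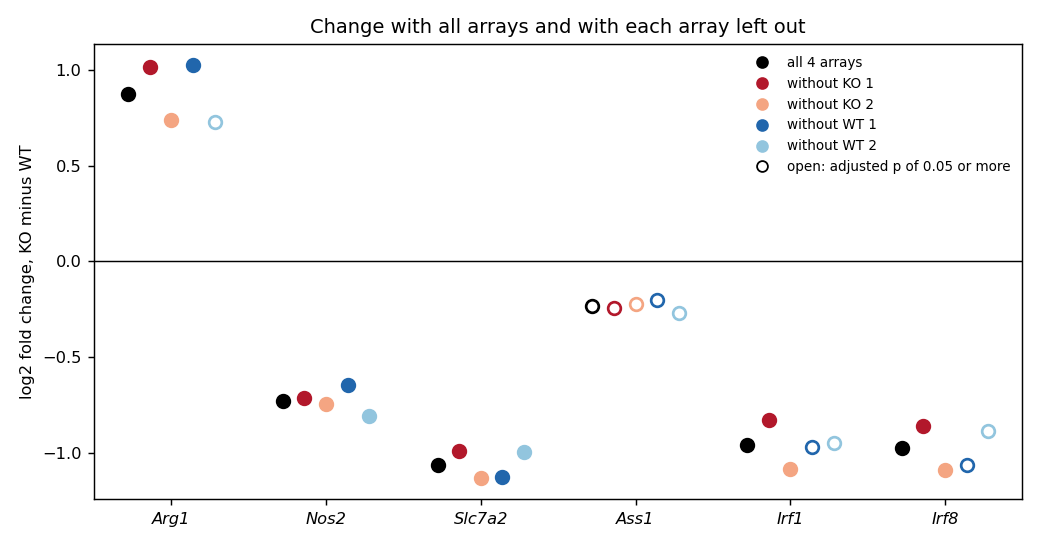
Log2 fold change, KO minus WT (vertical axis), of 6 genes with all 4 arrays and with each array left out; open points have an adjusted p of 0.05 or more. Nos2 and Slc7a2 stay filled in all 5 fits, Arg1 is open at 0.73 without WT replicate 2, Irf1 and Irf8 are open without either WT array, and Ass1 is open throughout.

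The genes whose pattern over the 4 arrays was nearest to that of Arg1, by the Euclidean distance of log2 values centred on each gene's mean, were Emp1 (distance 0.16), Cd24a (0.16), Dcn (0.19), Cdkn1c (0.21) and Mmp12 (0.22). Emp1 encodes an epithelial membrane protein, Cd24a a surface glycoprotein, Dcn the matrix proteoglycan decorin, Cdkn1c a cell cycle inhibitor and Mmp12 the macrophage elastase. In all 5, as in Arg1, KO replicate 2 was the highest array and WT replicate 2 the lowest. The distance rests on 4 arrays and describes them only.

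The labelled cell type was checked against markers. All 8 macrophage markers had values, none below the control median on every array, with summed signals of 19742.9 and 22519.8 on the KO arrays and 20530.7 and 21058.0 on the WT arrays. Most of each sum came from Lyz2 and Cd68. Of the 8 markers, the efferocytosis receptor gene Mertk fell (134.7 and 150.5 in KO, against 225.6 and 233.4 in WT). Adgre1 read 1062.8 and 1212.8 in KO, against 1429.2 and 1421.2 in WT. It did not pass (log2 fold change -0.32, limma adjusted p = 0.46), but did after quantile normalization (0.029). At an unadjusted p of 0.05 limma had 2 of the 8 lower and 0 higher, against 323 and 150 of all 5002 genes. Of 12 fibroblast and mesothelial markers with values, 6 were tested, all 6 had higher means in KO (2114 of all 5002 genes did) and Dcn rose (limma adjusted p = 6.31e-05); their summed signals were 2974.7 and 3336.6 in KO, against 2467.4 and 2449.9 in WT. At an unadjusted p of 0.05, 4 of these 6 were higher, against 150 of all 5002 genes. After quantile normalization Col1a2 and Pdgfra passed as well (limma adjusted p = 0.0071 and 0.047), and Col1a1, Col3a1 and Krt8 did not. Without KO replicate 1 the log2 fold changes of Col1a2 and Col3a1 were 0.50 and 0.37, and without KO replicate 2 they were 0.23 and 0.16. Of 9 neutrophil markers with values, 3 were tested and S100a8 fell (limma adjusted p = 0.0015). On every array 5 of the 9 lay below the control median. The sums were 1142.5 and 1144.0 in KO, against 1313.8 and 1376.6 in WT. Most of that gap came from S100a8 itself, which averaged 350.5 in KO and 529.5 in WT. All 3 tested markers had lower means in KO (2888 of all 5002 genes did), but Camp and Elane did not pass (limma adjusted p = 0.9997 and 0.98). Of the markers below the filter, Ngp, Ly6g and Cxcr2 had higher means in KO, and S100a9, Ltf and Mpo lower ones. The sums rest mostly on S100a8 and therefore do not show whether the neutrophil markers fell as a set. Of the 10 tested markers of B, T and NK, dendritic, mast and eosinophil cells, limma called 0, and 0 had an unadjusted p under 0.05. Without WT replicate 1 or 2 neither passed, at adjusted p of 0.29 and 0.75 for Dcn and 0.41 and 0.75 for S100a8. Whether these cells had a part in the changes of Arg1, Nos2 or Slc7a2 was not tested, and in such samples fewer cells of a type and less RNA per cell cannot be told apart.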

How the data were processed

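RNA of 2 KO and 2 WT macrophage samples was measured on 1-colour Affymetrix arrays from 10 µg of total RNA, per the labels' protocols. The deposited values are intensities, 1 for each probe set on each array, and are linear by their range. Probe summary, background correction and scaling were not given in the sources used here. Rows blank on all arrays (1780) and 59 control rows were set aside. Array medians after log2(signal + 16) were 7.27 and 7.25 for KO and 7.30 and 7.28 for WT, within 0.1, so no rescaling was done. The filter kept probe sets whose average log2 value exceeded the 40th percentile (a signal of 111). KO and WT were fitted with limma 3.58.1 under R 4.3.3 (lmFit, eBayes with a trend, two-sided, threshold 0.05).

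The prior degrees of freedom came out infinite: the test took the spread of each probe set from the trend alone. Probe sets were named where the annotation gives 1 gene; a gene outside the enzyme set is represented by its brightest kept probe set. The number of arrays limits the precision. Members and lists were chosen with earlier results of these data known. All members are named, with list genes past the threshold (up to 6 a direction) or, where fewer than 4 passed, the 4 with the smallest p, and the 5 genes nearest to Arg1. The genes Slc7a1, Ifngr1, Ifngr2, Jak1, Il4ra, Il13ra1, Stat6, Cebpb, Klf4, Myd88, Rxra and Rxrb and the marker genes were picked for naming with their values in view. The fit was tested on simulated data. Alternatives changed scaling, filter, pseudocount, moderation, threshold, probe set averaging, the replicate block and the arrays used. Figures were drawn with matplotlib 3.10.9.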

Additional observations from a re-analysis of the deposited data

How the results depend on the processing

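Of 119 alternative values of single enzyme probe sets, 110 kept their direction and their side of the threshold, 3 lost it (Arg1 at 0.88 and Nos2 at -0.73 without moderation, Arg1 at 0.73 without WT replicate 2) and 6 turned. The turned values were all of probe sets that had not passed: Odc1 was at 0.0016 after quantile normalization, the Arg2 probe set otherwise at 0.10 was at -0.080 with the probe sets averaged, and, with arrays left out in turn, Odc1 lay between -0.10 and 0.039 and Oat between -0.26 and 0.12. The number of enzyme probe sets called was 2, and 0 without moderation; with arrays left out it ran from 1 to 2. Slc7a2 was the 1 transport and polyamine gene called, with 0 called without moderation and 2 with the replicate block (Gatm added, adjusted p = 0.037). Of the upstream genes 4 were called, 0 without moderation, 7 with the block (Cebpb, Il13ra1 and Myd88 added, at adjusted p of 0.041, 0.028 and 0.034), and between 1 and 6 with arrays left out (1 without either WT array). Over all probe sets, 227 were called (65 higher, 162 lower), 420 after quantile normalization (170 higher, 250 lower), 480 with the replicate block, 0 without moderation (388 at an unadjusted p under 0.05) and between 54 (without WT replicate 2) and 327 (without KO replicate 2) with arrays left out. Without moderation each probe set has 2 residual degrees of freedom, and without an array 1 genotype has a single array, assumed to vary like the other. Replicates of 1 number deviated together (correlation 0.42 over 6389 probe sets of the differences between replicates in KO and in WT), but the labels name no shared source and leave "dup" in both second replicates unexplained, so the block is no part of the results above. Among the tested fibroblast and mesothelial markers, the block added Col1a2, Col3a1 and Pdgfra as higher in KO (limma adjusted p = 0.003, 0.045 and 0.026). Col1a1 and Krt8 did not pass with it. Signals below the opposite-strand controls limit Nos2, Asl, Arg2 and, on 2 of 4 arrays, Odc1.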
